A study of Mus musculus with 10 samples.

Results

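Hyaluronan receptor and processing genes were examined in the nucleus accumbens (NAc) of mice of the inbred strains C57BL/6J, called B6, and DBA/2J, called D2. The set held 10 of the 29883 genes in the count table: the receptors Stab1, Stab2, Lyve1, Cd44 and Hmmr, the degrading proteins Cemip2, Hyal1 and Hyal2, and the synthases Has2 and Has3. Members were found by their Ensembl gene identifiers. The set was chosen because of the measured values of Stab2, which were far higher in D2 than in B6, and it asks whether its paralog Stab1 and other genes that bind, make or degrade hyaluronan differed too. The strain difference of Stab2 in these mice is therefore described without a test. The 9 other genes were read from a fit of all genes.

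The NAc belongs to the ventral striatum. It was dissected from ethanol-naive, group-housed males of 9 weeks, 5 B6 and 5 D2, and 1 poly-A library was made per mouse. Both groups are unmodified inbred strains, so each mouse is a replicate of 1 genotype. Reads of both strains were aligned to GRCm39, which is the genome of B6. Whether D2 reads that differ from it were counted less often was not tested, for any gene given as lower in D2. In bulk tissue fewer cells of a type cannot be told apart from less RNA per cell.

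Hyaluronan is a long, unbranched sugar polymer and a main component of the extracellular matrix of the brain, where it anchors perineuronal nets. Synthases at the plasma membrane extrude it, hyaluronidases at the cell surface and in lysosomes degrade it, and receptors bind it for adhesion, signalling or uptake. Stab2 encodes stabilin-2, a scavenger receptor that clears hyaluronan from the circulation and is best known from the sinusoidal endothelium of liver, spleen and lymph node. Stab1 encodes the related stabilin-1, found on sinusoidal endothelium and on macrophages.

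Several libraries stood apart before any member was read. Each library held 96977262 to 116776714 counted reads, and levels are given as CPM, counts per 1000000 counted reads after TMM normalisation of the library sizes. The 8 marker genes of striatal neurons were measured in every library. Between the strains, 5 of them were lower in D2 and 0 higher at an adjusted p of 0.05 (edgeR's quasi-likelihood test). Over all genes 9.83% were lower and 8.50% higher. DESeq2 called 6 of the 8 markers. The summed level of the 4 cortex neuron markers lay between 69.6 and 892.6 CPM in B6 and between 202 and 551 CPM in D2. B6 replicates 3 and 5 held the most cortex marker RNA, and the members called below are also given without these libraries. B6 replicate 4 stood apart in genes that are nearly silent in B6, as described for Stab2.

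Stab2 (ENSMUSG00000035459) lies on the reverse strand of GRCm39 at chr10:86675054-86843889. The study used Stab2 as a strain control in qRT-PCR, and the primer pair is shown because it marks the stretch of the gene that was amplified. Both primers of 20 bases matched transcripts of Stab2 and of no other gene. They lie in exon 69 of 69 of the protein-coding transcript, beyond the stop codon, and span a product of 146 bases. The forward primer lies at chr10:86677323-86677342 and the reverse primer at chr10:86677197-86677216. They are written in lower case, 5′ to 3′, with no base singled out.
forward: acctcacccctctggttagt
reverse: acagatagggcagaacaggc

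Stab2 was the member with the widest gap between the strains, but its reads were not restricted to D2. In B6 replicates 1 to 5 the raw counts were 141, 79, 75, 498 and 62. In D2 replicates 1 to 5 they were 11771, 9462, 10005, 5109 and 6151. Every B6 library thus held Stab2 reads, and the lowest D2 library lay far above the highest B6 library. After normalisation the level was 1.67 ± 1.84 CPM in B6 and 75.1 ± 23.0 CPM in D2 (SD, n = 5 each), a log2 fold change of 5.50. The D2 mean was 45.1 times the B6 mean, and the lowest D2 mouse, at 44.5 CPM, was 9.02 times the highest B6 mouse, at 4.93 CPM. That B6 mouse, replicate 4, set most of the B6 mean. Without it B6 held 0.851 ± 0.287 CPM (SD, n = 4), the ratio of the means was 88.3 and the log2 fold change 6.45.

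**Figure D1:**
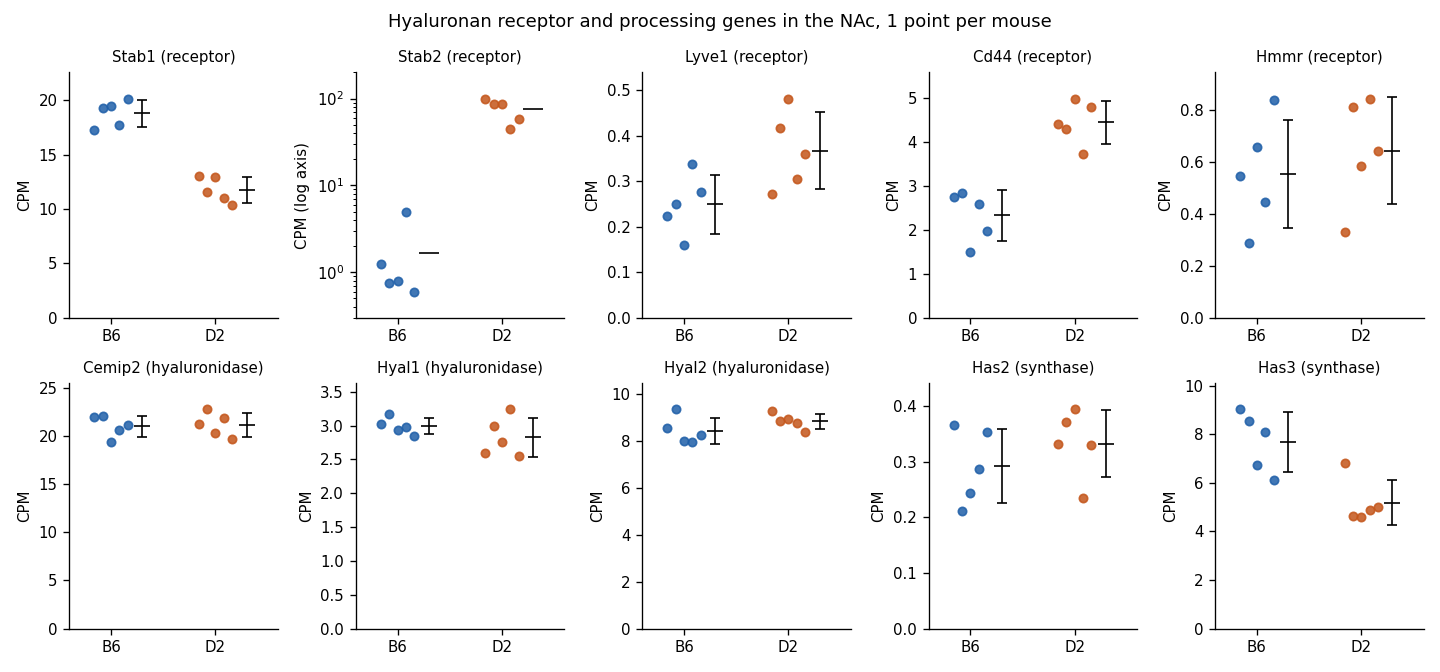
CPM of each member in each of the 5 B6 (blue) and 5 D2 (orange) libraries, 1 point per mouse, with the mean and SD as black marks. The Stab2 panel has a log axis and shows the mean only. Stab2, Stab1 and Cd44 do not overlap between strains, and the single high D2 point of Has3 is 6.82 CPM.

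The level of Stab2 also varied within D2. Replicates 1 to 5 held 99.99, 85.6, 87.5, 44.5 and 58.1 CPM, so the highest D2 mouse was 2.25 times the lowest, a coefficient of variation of 30.6%. Replicates 4 and 5 were the low ones. Genes raised as strongly in D2 were steadier. Besides Stab2, 40 genes that averaged 100 counts or more had a log2 fold change of 5 or more, and their median coefficient of variation in D2 was 4.97% (range 1.66% to 13.8%). Stab2 lay outside that range. Conversely, 16 genes with a log2 fold change of −5 or less had a median coefficient of variation of 12.1% in B6. Their range, 6.19% to 95.9%, contains the value of Stab2, but it was taken over the B6 libraries. Those differed more in cortex marker RNA, with sums of 69.6 to 892.6 CPM against 202 to 551 CPM in D2. The 2 ranges therefore come from unlike groups. These 40 genes were picked by their values in these libraries, after Stab2 had been seen, and 30 of them are annotated as pseudogenes.

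The residual Stab2 signal in B6 ran beside that of these other genes. As a percentage of the D2 mean, Stab2 stood at 1.68%, 1.01%, 1.06%, 6.56% and 0.786% in B6 replicates 1 to 5. The medians of the 40 genes in the same libraries were 1.73%, 0.646%, 1.18%, 6.07% and 1.10%. In B6 replicate 4 each of the 40 genes stood between 3.66% and 7.63%, so Stab2 was not alone in its high value there. The 16 genes with a log2 fold change of −5 or less had medians between 0.881% and 1.63% of the B6 mean in the D2 libraries. What produced these low levels was not tested.

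**Figure D2:**
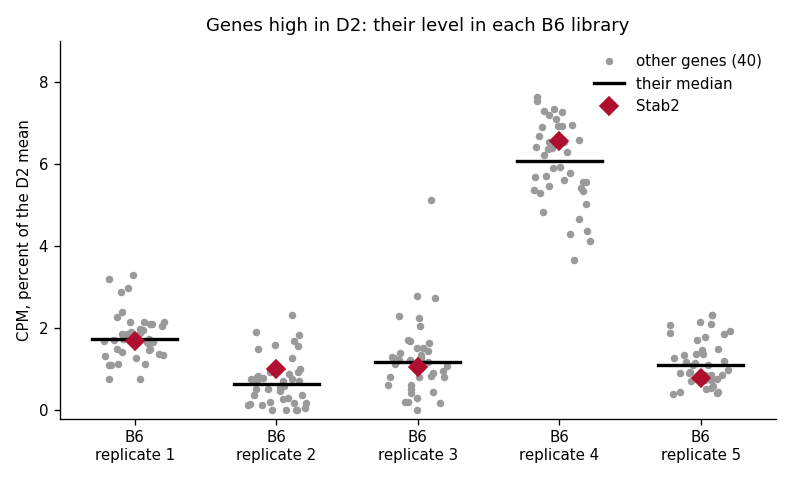
Level in each B6 library as a percentage of the D2 mean, for Stab2 (red diamond) and for the 40 other genes with a log2 fold change of 5 or more (grey points, median as a line). Stab2 lies within the spread of the other genes in every library, and all points of B6 replicate 4 lie at 3.66% or more.

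The 5 genes whose profile over the 10 libraries was most like that of Stab2 were Gm7172, Hmga1b, Gm7335, Gm13736 and Gm6969. Likeness was the root-mean-square distance between centred log2 CPM, among 15387 genes, and the distances ran from 0.356 for Gm7172 to 0.393 for Gm6969. All of these except Hmga1b are annotated as processed pseudogenes, and none lies on chromosome 10. Reads of such copies can be shared with their parent genes, so their values are uncertain. The likeness lay in the step between the strains. Within D2 the 5 genes had coefficients of variation from 3.07% to 8.01%, against 30.6% for Stab2.

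The well-measured neighbours of Stab2 on chromosome 10 had small differences between the strains. Of 76 genes annotated within 1 Mb of Stab2, 33 were measured. Of these, 14 averaged 100 counts or more, with log2 fold changes between −0.13 and 0.32. At an adjusted p of 0.05, 0 of the 14 passed, where 18.3% of all genes did (edgeR's quasi-likelihood test, Benjamini-Hochberg adjustment over all genes). At an unadjusted p under 0.05, 2 of the 14 passed, and DESeq2 called 1 of them, Rtcb (log2 fold change 0.08, adjusted p = 0.0465). With the cortex marker level as a covariate Rtcb (0.10) and Gm48485 (0.68) passed, and without both cortex-rich libraries Igf1 (0.66) passed. These are all far below the difference of Stab2. The nearest, Nt5dc3, lies 0.801 kb away and held 68.5 CPM in B6 and 73.0 CPM in D2 (log2 fold change 0.09, adjusted p = 0.441). Hsp90b1, a chaperone of the endoplasmic reticulum 134 kb away, held 244 CPM in B6 and 237 CPM in D2 (log2 fold change −0.04, adjusted p = 0.488). The 1 neighbour called was 1700113H08Rik, at 0.0212 CPM in B6 and 0.00189 CPM in D2, a few reads per library (adjusted p = 0.0343), and its call was lost in 7 of the 10 fits that left out 1 mouse. Gm16268, an antisense gene that shares 416 exonic bases with Stab2, held 0.143 CPM in B6 and 0.197 CPM in D2 (adjusted p = 0.179). It stayed low in both strains.

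**Figure D3:**
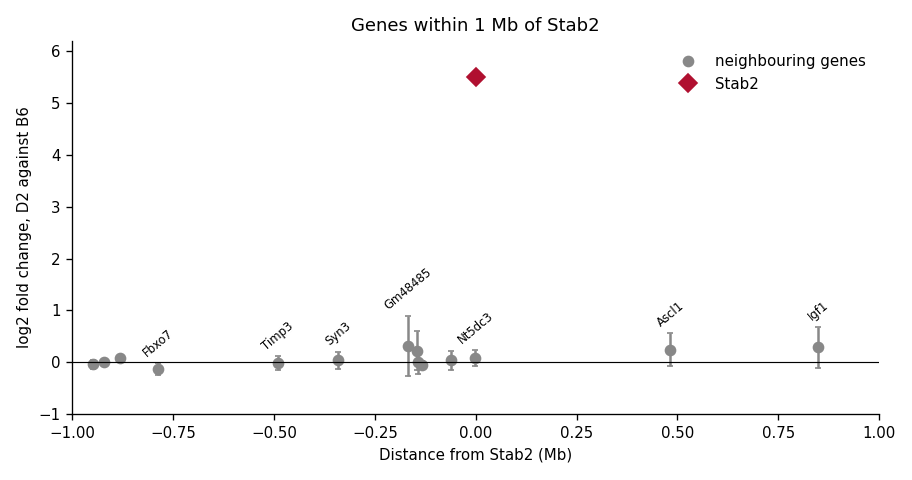
Log2 fold change of D2 against B6 for Stab2 (red diamond, no interval) and for the 14 measured neighbours that averaged 100 counts or more (grey, 95% confidence interval), by distance from Stab2 in Mb. Stab2 stands at 5.50, and the neighbours lie between −0.13 and 0.32.

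Among the 9 members other than Stab2, 3 passed an adjusted p of 0.05, where 18.3% of all genes did. Of these, 1 was higher in D2, where 8.50% of all genes were, and 2 were lower, where 9.83% were. The levels of 2 members, Stab1 and Cd44, did not overlap between the strains, where 16.0% of all genes did not. With only genes of at least 10 counts in every library tested, 3 of 9 members and 4532 of 19119 genes passed. No direction was common to the members: Cd44 rose and Stab1 and Has3 fell in D2.

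The paralog Stab1 (ENSMUSG00000042286, chr14:30860970-30890598, reverse strand) went the opposite way to Stab2. B6 replicates 1 to 5 held 17.3, 19.3, 19.5, 17.8 and 20.2 CPM. D2 replicates 1 to 5 held 13.01, 11.5, 12.99, 10.99 and 10.3 CPM. Every D2 mouse lay below every B6 mouse. The means were 18.8 ± 1.22 and 11.8 ± 1.20 CPM (SD, n = 5 each), and the log2 fold change was −0.67 (SE 0.072, 95% confidence interval −0.83 to −0.52, adjusted p = 2.09e-05, edgeR's quasi-likelihood test). D2 thus held 62.7% of the B6 level. Without B6 replicate 4 the value was −0.69, and with both cortex-rich B6 libraries left out it was −0.62 (adjusted p = 0.000107). On the opposite strand Stab1 shares 387 exonic bases with Gm52148, 113 with Nt5dc2 and 65 with Gm62616. Nt5dc2 held 4.26 and 4.18 CPM.

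Compared per kb of exon, Stab1 was the more abundant stabilin in B6 and Stab2 in D2. Stab1 stood at 1.83 ± 0.118 CPM per kb in B6 and 1.14 ± 0.116 in D2 (SD, n = 5 each). On the same scale Stab2 stood at 0.155 ± 0.171 in B6 and 6.98 ± 2.13 in D2. The order of the stabilins therefore differed between the strains.

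Cells that could carry the stabilins were read through their markers. Counts of called markers, here and below, stand beside 8.50% of all genes higher and 9.83% lower, and rest on few genes. No share over all genes is given for counts at an unadjusted p. The 8 perivascular macrophage markers summed to 9.36 to 12.8 CPM in B6 and 9.81 to 11.4 CPM in D2. Of these, F13a1 (log2 fold change 0.38) and Cd209f (1.29) rose and Pf4 (−0.78) fell. The mannose receptor gene Mrc1, which defines these macrophages, held 2.38 CPM in B6 and 2.31 CPM in D2 (adjusted p = 0.849). The 7 microglial markers summed to 247 to 264 CPM in B6 and 225 to 269 CPM in D2. Among them P2ry12 rose (0.26) and Siglech fell (−0.41). At an unadjusted p under 0.05 in edgeR, 5 of the 7 passed, with Aif1 (0.27) also higher and Tmem119 (−0.17) and Cx3cr1 (−0.13) also lower. DESeq2 called P2ry12, Siglech and Aif1. These sums overlapped between the strains, and their part in the fall of Stab1 was not tested.

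Of the 8 markers of sinusoidal and lymphatic endothelium, 2 rose and 0 fell, where 8.50% of all genes rose and 9.83% fell. The sum of the 8 was 31.4 to 35.6 CPM in B6 and 32.9 to 39.1 CPM in D2. Most of that sum came from Prox1 and Pdpn, which neurons and astrocytes also express. The rising genes were Pdpn (log2 fold change 0.49, adjusted p = 0.000737) and the lymphatic chemokine gene Ccl21a, which held 0.0202 CPM in B6 and 0.364 CPM in D2 without overlap (adjusted p = 7.86e-05). Ccl21a has near-identical copies and was at 0 in at least 1 B6 library. Clec4g and Oit3, markers of liver sinusoids, were near 0 in both strains, with highest values of 0.106 and 0.270 CPM. Dnase1l3 held 0.0616 CPM in B6 and 0.158 CPM in D2 (log2 fold change 1.34, adjusted p = 0.0546, edgeR's quasi-likelihood test). DESeq2 called it, beside Pdpn and Ccl21a. At an unadjusted p under 0.05 in edgeR, 4 of the 8 markers passed, among them Prox1, which was lower in D2 (−0.21). The 7 markers of brain endothelium, such as Cldn5 and Pecam1, summed to 150.3 to 188.9 CPM in B6 and 130.0 to 177.8 CPM in D2, and 0 of them passed. With DESeq2 Cldn5 passed, as did 1 gene of that list at an unadjusted p under 0.05 in edgeR. The part of either endothelium in the level of Stab2 was not tested.

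Lyve1 (ENSMUSG00000030787, chr7:110448585-110462460, reverse strand) encodes a hyaluronan receptor of lymphatic endothelium and of perivascular macrophages. Its raw counts were 25, 26, 15, 34 and 29 in B6 and 32, 46, 55, 35 and 38 in D2. The groups overlapped, since in CPM both B6 replicates 4 and 5 lay above D2 replicate 1. At 0.249 ± 0.0655 and 0.367 ± 0.0843 CPM (SD, n = 5 each), the log2 fold change was 0.55 with an interval of 0.06 to 1.05 (SE 0.227, adjusted p = 0.12, edgeR's quasi-likelihood test). Lyve1 did not pass, and at this depth the interval spans changes from near 0 to about that of Cd44.

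Cd44 (ENSMUSG00000005087, chr2:102641486-102732010, reverse strand) encodes the main cell-surface receptor for hyaluronan, which also marks reactive astrocytes and activated leukocytes. B6 replicates 1 to 5 held 2.76, 2.85, 1.50, 2.60 and 1.98 CPM. D2 replicates 1 to 5 held 4.42, 4.30, 4.99, 3.73 and 4.82 CPM. Every D2 mouse lay above every B6 mouse, and the lowest values were those of the cortex-rich B6 replicates 3 and 5. The means were 2.34 ± 0.581 and 4.45 ± 0.491 CPM (SD, n = 5 each), and the log2 fold change was 0.93 (SE 0.159, 95% confidence interval 0.58 to 1.27, adjusted p = 0.00107, edgeR's quasi-likelihood test). With both cortex-rich libraries left out it was 0.70 (adjusted p = 0.000447), and without B6 replicate 4 it was 0.97. Cd44 shares 207 exonic bases with Gm57471 on the opposite strand.

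Cell types that could carry Cd44 were read in the same way. Their counts stand beside the same shares of all genes, 8.50% higher and 9.83% lower. The 5 astrocyte markers summed to 926 to 983 CPM in B6 and 883 to 989 CPM in D2, with Gja1 (log2 fold change 0.20) higher and Aqp4 (−0.19) and Aldh1l1 (−0.24) lower in D2. Most of that sum came from Slc1a3, at 579 CPM in B6 and 555 CPM in D2. Gfap held 66.45 CPM in B6 and 83.18 CPM in D2 (log2 fold change 0.32, adjusted p = 0.0891, edgeR's quasi-likelihood test), and DESeq2 called it. The 6 meningeal fibroblast markers summed to 23.0 to 38.4 CPM in B6 and 31.3 to 54.7 CPM in D2, and of these Dcn (0.64, adjusted p = 0.0104) rose. These ranges overlapped, and the part of either cell type in the rise of Cd44 was not tested. The 7 genes of CD44's partners in signalling and at the cytoskeleton had a median log2 fold change of 0.03, and 0 of them passed in edgeR, where 3 had an unadjusted p under 0.05. DESeq2 called 2 of them, Msn and Spp1.

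Hmmr (ENSMUSG00000020330, chr11:40592167-40624288, reverse strand) encodes a hyaluronan-binding protein of the mitotic spindle. It ranged from 0.287 to 0.838 CPM in B6 and from 0.331 to 0.844 CPM in D2. The ranges nearly coincided, with a log2 fold change of 0.21 (95% confidence interval −0.42 to 0.85, adjusted p = 0.703). The 6 markers of dividing cells summed to 7.83 to 12.7 CPM in B6 and 7.26 to 18.9 CPM in D2, and 0 of them passed, also with DESeq2 or at an unadjusted p under 0.05.

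The genes that degrade hyaluronan showed small differences. Cemip2 (ENSMUSG00000024754, chr19:21755657-21836114, forward strand), a cell-surface protein described as a hyaluronidase, held 21.0 ± 1.10 CPM in B6 and 21.2 ± 1.23 CPM in D2 (SD, n = 5 each). Its log2 fold change was 0.01, with a 95% confidence interval of −0.10 to 0.12. Hyal2 (ENSMUSG00000010047, chr9:107445086-107450171, forward strand), which is anchored at the cell surface and cleaves long hyaluronan, held 8.42 ± 0.566 and 8.84 ± 0.321 CPM (interval −0.06 to 0.20). Neither passed, and each interval is narrow beside the changes of Stab1 and Cd44.

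Hyal1 (ENSMUSG00000010051, chr9:107454126-107458909, forward strand) encodes the lysosomal hyaluronidase that cuts the polymer into short pieces. It held 2.99 ± 0.119 CPM in B6 and 2.83 ± 0.288 CPM in D2 (SD, n = 5 each), with an interval of the log2 fold change from −0.26 to 0.10. Its exons share 1920 bases with Naa80 and 1436 bases with Hyal3 on the same strand, so the count of Hyal1 depends on how shared reads were assigned. Among the other genes of breakdown, of which 5 of 9 listed were measured, 0 rose and 1 fell. That gene was Hexa, a subunit of the lysosomal hexosaminidase, at 51.9 CPM in B6 and 46.2 CPM in D2 (log2 fold change −0.17, adjusted p = 0.00825).

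The synthases did not move together. Has3 (ENSMUSG00000031910, chr8:107596874-107611198, forward strand) fell in D2. B6 replicates 1 to 5 held 9.01, 8.55, 6.72, 8.07 and 6.11 CPM. D2 replicates 1 to 5 held 6.82, 4.63, 4.58, 4.88 and 5.00 CPM. The groups overlapped through D2 replicate 1, which lay above the cortex-rich B6 replicates 3 and 5. The means were 7.69 ± 1.23 and 5.19 ± 0.932 CPM (SD, n = 5 each), and the log2 fold change was −0.57 (SE 0.131, 95% confidence interval −0.85 to −0.28, adjusted p = 0.00832, edgeR's quasi-likelihood test). With both cortex-rich libraries left out it was −0.72 (adjusted p = 0.000898), and with the cortex marker level as a covariate it was −0.47. Has3 shares 352 exonic bases with Chtf8 and Derpc on the opposite strand. Chtf8 held 0.672 and 0.627 CPM, and Derpc was not analysed here.

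Has2 (ENSMUSG00000022367, chr15:56528342-56557999, reverse strand) makes very long chains and is the synthase needed for embryonic development. It had the lowest level per kb of the members, with 0.211 to 0.366 CPM in B6 and 0.235 to 0.394 CPM in D2. Its log2 fold change of 0.18 had an interval of −0.27 to 0.63 (adjusted p = 0.636). On the opposite strand Has2os, which shares 400 exonic bases with it, held 0.0932 and 0.0998 CPM. Has1, the remaining synthase, was not a member but belonged to the list of synthesis genes. It rose from 1.66 ± 0.216 to 2.90 ± 0.186 CPM (SD, n = 5 each; log2 fold change 0.80, SE 0.0989, adjusted p = 7.66e-05).

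The fall of Has3 and the rise of Has1 ran against each other in the summed synthase level. Per kb of exon, Has1, Has2 and Has3 added up to 1.63 ± 0.232 CPM in B6 and 1.52 ± 0.171 CPM in D2 (SD, n = 5 each). Has1 made up 22.7% ± 1.76 of this sum in B6 and 42.4% ± 3.07 in D2. The share of Has3 was 73.7% ± 2.73 in B6 and 53.2% ± 3.80 in D2. Each Has1 share in D2, from 37.4% to 44.8%, lay above each in B6, from 20.4% to 25.2%. The shares were computed after the values of the synthases had been seen and carry no test.

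**Figure D4:**
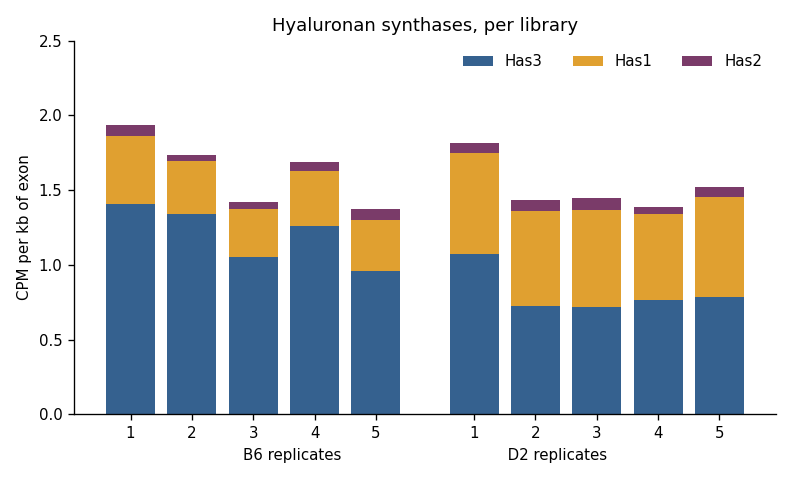
CPM per kb of exon of the synthases Has3, Has1 and Has2, stacked, in each of the 5 B6 and 5 D2 libraries. The stacks reach 1.37 to 1.93 in B6 and 1.39 to 1.81 in D2, and the Has1 part is larger in every D2 library.

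Ordered by level per kb in B6, the members ran from Cemip2 (1.88 ± 0.0980 CPM per kb) over Stab1, Hyal2 (1.66 ± 0.111), Has3 (1.20 ± 0.193), Hyal1 (0.793 ± 0.0315), Cd44 (0.345 ± 0.0858), Stab2 and Hmmr (0.0961 ± 0.0362) to Lyve1 (0.0598 ± 0.0157) and Has2 (0.0586 ± 0.0135). Cemip2 and Stab1 were closer than their SD, as were Lyve1 and Has2. Stab2, at 0.155 ± 0.171, and Hmmr were closer than the SD of Stab2, and B6 replicate 4 set most of that Stab2 mean. In D2, Stab2 came first, ahead of Cemip2 (1.89 ± 0.110) and Hyal2 (1.74 ± 0.0632), and Stab1 followed. Has3 (0.812 ± 0.146) and Hyal1 (0.749 ± 0.0761) were closer than their SD in D2, followed by Cd44 at 0.657 ± 0.0725.

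Other genes of hyaluronan biology and scavenging were read from 6 lists, of which 56 of 63 genes were measured. Of these, 7 rose, 7 fell and 42 did not pass, a share of 25.0% called beside 18.3% of all genes. Their median log2 fold change was 0.06 against 0.00 over all genes. The 18.3% counts weakly measured genes too. With only genes of at least 10 counts in every library tested, 14 of 52 list genes and 4532 of 19119 genes passed. The medians of the single lists ran from 0.00 for matrix proteins that bind hyaluronan to 0.14 for other proteins that bind or sense it. No direction was common to the 6 lists.

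The counts of single lists stand beside 8.50% of all genes higher and 9.83% lower, and rest on few genes. In synthesis, 3 of 8 genes rose and 0 fell. Besides Has1, these were Ugdh, which makes the glucuronate precursor, at 25.5 CPM in B6 and 33.7 CPM in D2 (log2 fold change 0.40, adjusted p = 0.000375), and Pgm3 of the hexosamine pathway (0.20, adjusted p = 0.0256). Of 15 matrix proteins that bind hyaluronan, 0 rose and 4 fell, while 11 did not pass and the median was 0.00. Tnfaip6, which links hyaluronan to inter-alpha-inhibitor, fell by 0.80 on the log2 scale, from 6.80 ± 1.33 to 3.91 ± 0.761 CPM (SD, n = 5 each; adjusted p = 0.00228). Ncan, the proteoglycan neurocan of perineuronal nets, fell by 0.32 (275 to 219.5 CPM, adjusted p = 0.000248). Hapln2, a link protein of the nodes of Ranvier, fell by 0.55 (adjusted p = 0.0301). It was highest in the cortex-rich B6 replicates 3 and 5 (29.9 and 29.7 CPM), and without them the log2 fold change was −0.28 (adjusted p = 0.146). Brevican, encoded by Bcan, fell by 0.16. It and Habp4 had the smallest changes among the called genes of the lists.

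Among 6 other proteins that bind or sense hyaluronan, 2 rose and 0 fell. These were Habp4 (log2 fold change 0.15) and Tlr2, a Toll-like receptor, at 1.10 CPM in B6 and 1.54 CPM in D2 (log2 fold change 0.48, adjusted p = 0.0176). Of 15 scavenger receptors and stabilin partners, 2 rose and 2 fell, with a median of 0.08. Postn, which encodes the matrix ligand periostin, rose from 7.87 to 12.0 CPM (log2 fold change 0.61, adjusted p = 0.0101), and Gulp1, an adaptor of the stabilins in engulfment, rose by 0.39 (adjusted p = 0.0477). The scavenger receptors Scarf2 (−0.41, adjusted p = 0.00395) and Scarf1 (−0.31, adjusted p = 0.0438) fell. The changes of Gulp1, Scarf1, Pgm3 and Hapln2 lay near the threshold and each was lost in at least 5 of the 10 fits that left out 1 mouse.

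**Figure D5:**
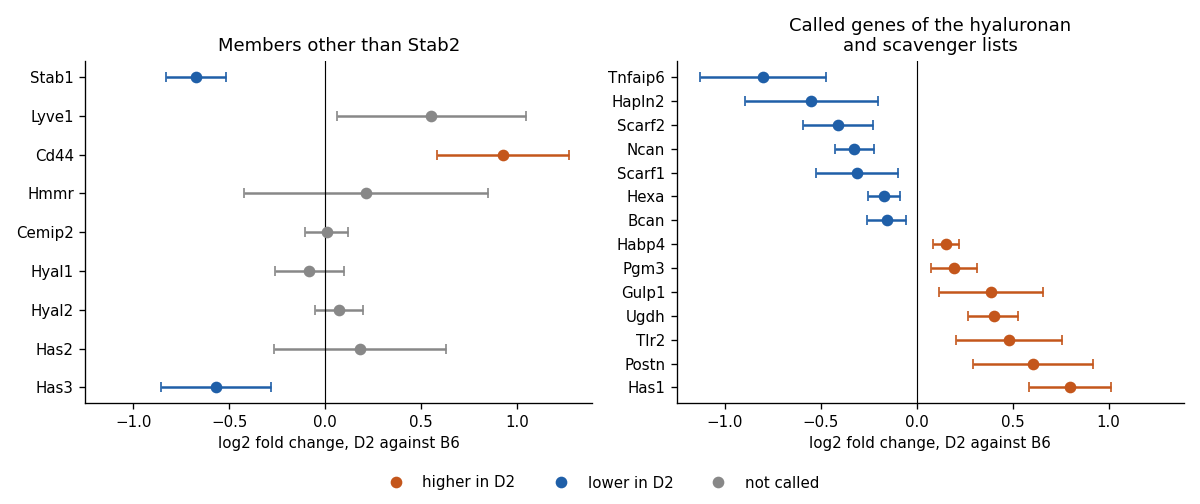
Log2 fold change of D2 against B6 with its 95% confidence interval, for the 9 members other than Stab2 (left) and for the 14 called genes of the 6 lists (right). Orange marks genes higher in D2, blue genes lower in D2 and grey genes that did not pass. Stab1 at −0.67 and Cd44 at 0.93 lie on opposite sides of 0.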

How the data were processed

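The NAc of 5 B6 and 5 D2 mice was sequenced. The authors trimmed reads with fastp, aligned them with STAR 2.7.10b to Ensembl GRCm39, used Samtools 1.6 and counted reads per gene with featureCounts. Whether counting used the strand is not given in the sources used here. The authors deposited unnormalised read counts for 29883 genes. The lowest median count was 0.5, so genes with a median of 0 are absent. Summary columns of the table (a median, an average, a number of low values) were not used.

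Symbols, coordinates and exon lengths came from GENCODE vM39, also GRCm39, in which 29519 identifiers were found. All genes were fitted with edgeR 4.0.16 in R 4.3.3 (TMM, two-sided quasi-likelihood F test, Benjamini-Hochberg adjustment over all 29883 genes, threshold 0.05). The SE is the absolute log2 fold change over the square root of F. CPM are TMM-normalised counts per 1000000 counted reads, and CPM per kb divides them by the length of the joined exons. Libraries of 96977262 or more reads keep counting error small except for genes of a few reads. Replicates are separate mice, and no pair of libraries agreed within sampling noise.

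The members and lists were chosen with earlier results of these data known. Named genes were the 10 members, the 12 largest changes among called genes of the 6 lists, called neighbours within 1 Mb, the 5 genes most like Stab2 (prior count 2), and markers that moved with a member. Bcan, Habp4, Msn, Spp1, other neighbours, antisense or overlapping genes and other markers were named after their values were seen. There were 10 marker lists, written from general knowledge. Of these, choroid plexus had 1 of 4 genes called (Folr1, lower), and cortex neurons had 0 of 4. Primer sequences were read from the study's primer list and matched to GENCODE transcripts. Alternatives were DESeq2 1.42.0, other size factors, filters, a stricter threshold of 0.01, the replicate number as a block and leaving out each mouse. A cortex marker covariate and leaving out B6 replicates 3 and 5 together were added after seeing the data. Scripts were tested on simulated data.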

Additional observations from a re-analysis of the deposited data

Results flagged for a closer look

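Among 44 groups of 5 libraries examined, 2 held a library farther from the others than chance usually gives, and chance alone flags about 1 in 20 groups. Stab2 in B6 replicate 4 was at 4.93 CPM, where the other B6 libraries lay between 0.591 and 1.26 CPM, and the gap was 0.846 of the whole range. The same library was also the highest B6 library in the median of the 40 other genes that are high in D2, at 6.07% of their D2 mean. Has3 in D2 replicate 1 was at 6.82 CPM, where the other D2 libraries lay between 4.58 and 5.00 CPM, a gap of 0.812 of the range. Without this mouse the log2 fold change of Has3 was −0.69 (adjusted p = 0.00111, edgeR's quasi-likelihood test).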

How the results depend on the processing

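Of the 9 tested members, the same count of 3 was called under every one of the 19 alternatives and at an adjusted p of 0.01, and Stab1, Cd44 and Has3 each kept their direction and their call in all 19. At 0.01, 3415 genes were called in place of 5478. The log2 fold change of Stab2 was 5.27 to 6.45 with each mouse left out, the highest without B6 replicate 4, and 5.04 without both cortex-rich B6 libraries. Cemip2, near 0, turned sign: it lay between −0.02 and 0.03 with each mouse left out and at −0.03 without both cortex-rich libraries. Of the list genes, 14 were called, 9 to 15 with each mouse left out (9 without D2 replicate 5) and 27 with the cortex covariate. With that covariate the calls over all 29883 genes also rose, from 5478 to 7792. Without both cortex-rich libraries Tlr2 (adjusted p = 0.052, edgeR), Hapln2 (−0.28, 0.146), Gulp1 (0.33, 0.128), Scarf1 (−0.29, 0.114) and Pgm3 (0.14, 0.118) missed the threshold. The neighbours of Stab2 called were 0 under filterByExpr, which tested 22 of the 33, 1 of 18 with at least 10 counts in every library (Gm47006, not 1700113H08Rik), 0 with the replicate block, 0 or 1 with each mouse left out, 3 with the cortex covariate and 2 without both cortex-rich libraries. Otherwise the cause was not tested. The replicate numbers did not pair the mice, since the correlations of same-numbered deviations ran from −0.415 to 0.371, and with the number as a block 4731 genes were called and the 3 members stayed called. Scaled by total counts, 45.0% of called genes were lower in D2, against 53.6% with TMM. Lyve1 and Has2 rest on few reads. Hmmr varied by 37.7% (coefficient of variation) between B6 mice and by 32.1% between D2 mice.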
